A study of Mus musculus with 12 samples.

Results

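The strong myostatin responders on other chromosomes were 7 genes, Dkk3, Ddah1, Zmynd17, Pak1, Wnk2, Dyrk1b and Angel1, of 10187 in the expression table of mouse triceps brachii, a muscle of the upper forelimb. The members were picked because their values differed between myostatin-deficient and control mice and because they lie off chromosome 1, which carries the myostatin gene Mstn. All 7 were present in the table and all 7 passed the minimum mean of 10 normalized reads used for testing, which 7247 genes passed.

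RNA was sequenced from 12 adult male C57/BL6 mice in 4 groups with n = 3 mice each. All mice, controls included, had eaten chow with 0.025% tamoxifen for 6 weeks. Inactive wild-type (IW) and active wild-type (AW) mice had a normal Mstn gene, whereas inactive (IM) and active (AM) myostatin-reduced mice had Mstn with exon 3 floxed, in which tamoxifen activated Cre recombinase. Active mice lived alone with a running wheel for 12 weeks from 6 months of age, and inactive mice had no wheel. The promoter that drives Cre, and whether wild-type mice carried it, were not given in the sources used here. A normalized read is a read assigned to a gene after the authors set the trimmed mean to a common value in all mice, without any correction for gene length.

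Myostatin is a secreted ligand of the transforming growth factor beta family that is made by muscle fibers and restrains muscle growth. It binds activin type II receptors, and the signal passes to the nucleus through SMAD proteins, which regulate transcription together with other factors. Mice without myostatin have larger muscles with a greater share of fast, glycolytic fibers.

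Among the members, 3 were lower and 4 were higher in myostatin-reduced mice. The lower genes were Dkk3, a secreted glycoprotein of the Dickkopf family of Wnt modulators, Ddah1, the enzyme that degrades the nitric oxide synthase inhibitor asymmetric dimethylarginine, and Zmynd17, a MYND zinc-finger protein of muscle now named Mss51. The higher genes were Pak1, a kinase activated by the small GTPases Rac and Cdc42, Wnk2, a with-no-lysine kinase, Dyrk1b, a dual-specificity kinase abundant in skeletal muscle, and Angel1, a relative of the CCR4 nucleases that binds the cap-binding protein eIF4E.

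The targeted gene and the tissue were examined first. Mstn was between 79.7 and 138 normalized reads in the 6 wild-type mice and between 8.70 and 21.6 in the 6 myostatin-reduced mice. The reads assigned to the 10187 genes were estimated at 9028000 to 12189000 per mouse. The fewest estimated reads of a member in a mouse were 49, for Dkk3. All 10 skeletal muscle markers were present, with a summed level of 186100 to 277100 normalized reads. Of 43 tested genes in 10 lists of markers of muscle and other cell types, 0 were called for genotype in limma, against 5.78% of all genes tested, and 5 had an unadjusted p-value under 0.05, against 22.5%. The slow-fibre markers varied widely between mice, their summed level being 94.3 to 1370 in inactive and 151 to 1831 in active wild-type mice, and 78.3 to 112 in inactive and 117 to 1343 in active myostatin-reduced mice. The log2 changes of all 11 with genotype were below 0, at -1.97 to -0.11 with a median of -1.30. With a slow-fibre score, a summary of these markers in each mouse, in the model the genotype changes of the members were -2.20 for Dkk3, -1.74 for Ddah1, -1.51 for Zmynd17, 0.75 for Pak1, 0.87 for Wnk2, 0.59 for Dyrk1b and 0.56 for Angel1, against -2.18, -1.75, -1.42, 0.80, 0.98, 0.64 and 0.55 without it.

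Upstream sequences are shown for a pair of members from each direction, because the members moved with genotype in opposite directions and myostatin signals through SMAD proteins. RefSeq windows (GRCm38.p6) were found for 5 of the 7 members, 7 windows in all because Pak1 and Dyrk1b each had 2, and each of these upstream sequences matched the NCBIM37 (mm9) genome at a single place. Dkk3 and Angel1 had no window in the table. For Pak1 and Dyrk1b the first window is shown. Each line gives the 250 bases before the RefSeq start, 5′ to 3′ on the strand of the gene. Capitals mark CAGAC on either strand, the short SMAD box, and in Zmynd17 the palindrome GTCTAGAC, known as a SMAD-binding element.
Zmynd17, chr14:21316124-21316373, minus strand: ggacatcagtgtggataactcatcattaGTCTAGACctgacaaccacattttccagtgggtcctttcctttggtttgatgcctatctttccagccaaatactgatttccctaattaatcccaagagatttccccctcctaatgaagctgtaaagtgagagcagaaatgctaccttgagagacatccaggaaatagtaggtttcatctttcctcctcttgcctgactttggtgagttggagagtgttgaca
Ddah1, chr3:145421406-145421655, plus strand: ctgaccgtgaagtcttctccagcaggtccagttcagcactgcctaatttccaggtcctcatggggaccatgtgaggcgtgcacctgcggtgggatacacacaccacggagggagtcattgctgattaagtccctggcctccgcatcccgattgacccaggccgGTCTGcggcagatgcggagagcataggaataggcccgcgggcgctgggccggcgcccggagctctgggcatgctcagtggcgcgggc
Pak1, chr7:104936801-104937050, plus strand: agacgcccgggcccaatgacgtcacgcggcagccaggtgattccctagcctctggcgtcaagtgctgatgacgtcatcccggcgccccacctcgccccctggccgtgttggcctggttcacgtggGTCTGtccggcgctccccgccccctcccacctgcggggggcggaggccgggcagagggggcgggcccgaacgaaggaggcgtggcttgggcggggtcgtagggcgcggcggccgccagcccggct
Dyrk1b, chr7:28964252-28964501, plus strand: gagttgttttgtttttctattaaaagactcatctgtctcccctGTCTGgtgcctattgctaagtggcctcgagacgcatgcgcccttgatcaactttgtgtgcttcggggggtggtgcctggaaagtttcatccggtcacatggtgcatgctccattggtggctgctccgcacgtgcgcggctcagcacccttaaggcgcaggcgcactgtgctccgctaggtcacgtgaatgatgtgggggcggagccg

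The Zmynd17 window held the 8 letters GTCTAGAC, which were present in 0.167% of 32841 windows of the same length. This palindrome was searched for after the Zmynd17 sequence had been seen. It did not overlap a match to CAGAC, of which this window had 0. The windows of Ddah1, Pak1 and Dyrk1b each held CAGAC 1 time, as did 42.2% of all windows at least once, and these windows had 0 matches to GTCTAGAC. The E-box letters CANNTG occurred 3 times upstream of Ddah1, 4 times upstream of Pak1 and 4 times upstream of Dyrk1b, against 0 times upstream of Zmynd17, and 66.2% of all windows had at least 1. The GC box GGGCGG, on either strand, occurred 4 times upstream of Pak1, 1 time upstream of Dyrk1b and 0 times upstream of Ddah1 and Zmynd17, and was present in 32.7% of windows. GC content was 43.2% in Zmynd17, 64.0% in Ddah1, 74.8% in Pak1 and 56.8% in Dyrk1b, and the median of all windows was 52.4%. The windows not shown differed from these. The Wnk2 window held CANNTG 1 time, had 0 matches to CAGAC and GGGCGG and had a GC content of 51.6%. The second window of Pak1 held CAGAC 1 time, GGGCGG 3 times and CANNTG 0 times at 51.6% GC, and the second window of Dyrk1b held CAGAC 1 time, GGGCGG 4 times and CANNTG 1 time at 77.6% GC. None of these 3 windows held GTCTAGAC. A match to such letters is a description of the sequence and was not tested as a binding site.

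Dkk3 was the member with the greatest difference between genotypes. The gene lies on chromosome 7 from 119259533 to 119302571 on the minus strand (NCBIM37) with 8 annotated exonic regions. The inactive wild-type mice 1, 2 and 3 had 34.0, 32.5 and 33.0 normalized reads, and the active ones had 33.5, 22.1 and 32.1. Values in the myostatin-reduced mice were 5.48, 7.0 and 10.01 without and 5.80, 4.47 and 4.71 with a wheel. No value of the myostatin-reduced mice reached those of wild-type mice, and the lowest wild-type value was 2.21 times the highest myostatin-reduced value. The mean in myostatin-reduced mice was 22.6% of that in wild-type mice among inactive animals and 17.1% among active animals. The log2 change with genotype was -2.18 in both activity levels together, -2.04 in inactive and -2.32 in active mice. Because the members were picked on this contrast, these differences are given without a test.

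Ddah1 (chromosome 3, 145421639 to 145557241, plus strand) spans 135.6 kb. Wild-type mice had 33.4, 31.6 and 28.1 normalized reads when inactive and 27.1, 16.6 and 19.4 when active. Myostatin-reduced mice had 8.33, 7.64 and 5.97 when inactive and 5.63, 9.55 and 4.81 when active. All wild-type mice were above all myostatin-reduced mice, and within the wild-type genotype all inactive mice were above all active mice. Between genotypes the log2 change was -1.95 in inactive and -1.55 in active mice.

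Zmynd17 was the member with the most normalized reads in wild-type mice, whereas Wnk2 had more in myostatin-reduced mice. Zmynd17 lies on chromosome 14 from 21302086 to 21316123 on the minus strand, with 7 exonic regions within 14.0 kb. The wild-type values were 410, 352 and 513 normalized reads in inactive mice and 292, 214 and 207 in active mice. The myostatin-reduced values were 111, 146 and 156 in inactive mice and 87.2, 89.3 and 129.6 in active mice. The genotypes did not overlap, but the lowest AW mouse was only 1.33 times the highest IM mouse. The wild-type mice were themselves split by activity, with every IW mouse above every AW mouse. Its genotype change was -1.62 on the log2 scale in inactive and -1.22 in active mice.

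Pak1 (chromosome 7, 104937051 to 105060891, plus strand) has 16 annotated exonic regions. Among wild-type mice, the inactive had 28.6, 36.7 and 35.2 normalized reads and the active had 49.6, 58.0 and 50.5. Among myostatin-reduced mice, the inactive had 72.5, 67.0 and 70.7 and the active had 89.7, 64.0 and 79.8. Each group of wild-type mice stood apart from the other, whereas IM and AM mice overlapped. The genotypes were separated by the narrowest margin of the 7 members, since the lowest myostatin-reduced mouse was 1.10 times the highest wild-type mouse. On the log2 scale the genotype change was 1.05 in inactive and 0.54 in active mice.

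Wnk2 (chromosome 13, 49131672 to 49243383, minus strand) is the member with the most annotated transcripts, 11. Inactive wild-type mice had 104, 126 and 158 normalized reads and active ones 109, 84.9 and 96.4. Inactive myostatin-reduced mice had 224, 195 and 288 and active ones 187, 195 and 242. The IM and AM values overlapped, and all 6 were above the wild-type values. Its log2 change between genotypes was 0.86 in inactive and 1.10 in active mice.

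Dyrk1b (chromosome 7, 28964488 to 28972313, plus strand) is the shortest gene of the set, at 7.8 kb. The values of wild-type mice were 56.0, 68.1 and 69.1 normalized reads without a wheel and 61.8, 58.0 and 57.9 with it. Those of myostatin-reduced mice were 103, 88.9 and 116 without and 98.8, 84.0 and 93.6 with a wheel. Neither genotype was split by activity. The genotypes differed by 0.66 on the log2 scale in inactive and by 0.63 in active mice.

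Angel1 (chromosome 12, 88041452 to 88067410, minus strand) had the lowest level of the members in wild-type mice. These mice had 9.26, 9.78 and 9.81 normalized reads when inactive and 8.83, 9.44 and 8.17 when active. In myostatin-reduced mice the values were 14.9, 15.6 and 14.2 when inactive and 13.7, 13.3 and 12.5 when active. These values corresponded to about 91 to 173 reads. In myostatin-reduced mice every IM value was above every AM value. The genotype change on the log2 scale was 0.58 in inactive and 0.53 in active mice.

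**Figure D1:**
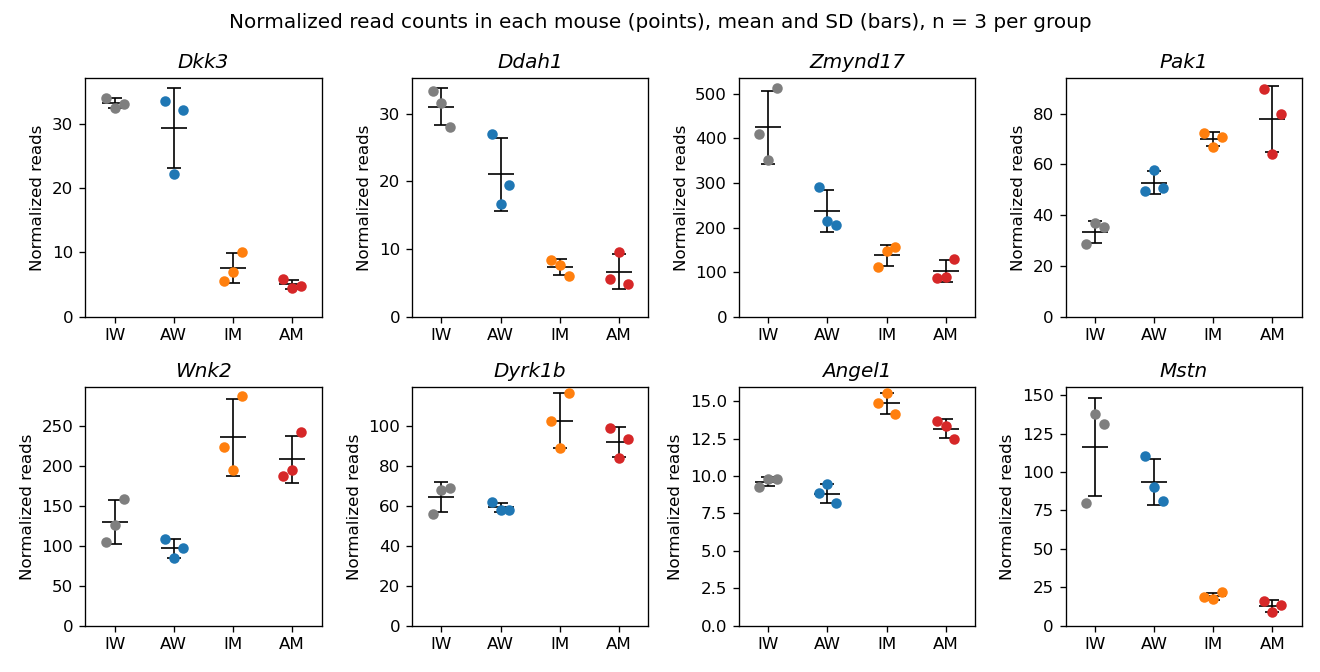
Normalized reads of the 7 members and of Mstn in each of the 12 mice. Points are mice 1, 2 and 3 from left to right, and black bars are the mean and SD of n = 3 mice in inactive wild-type (IW), active wild-type (AW), inactive myostatin-reduced (IM) and active myostatin-reduced (AM) groups. The vertical axes start at 0 and differ between panels. In every panel the 6 wild-type and the 6 myostatin-reduced mice do not overlap, and only in Zmynd17, Ddah1 and Pak1 are the IW and AW mice also apart.

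The rule fixed part of this picture. All 7 members had genotypes that did not overlap within both activity levels, as did 5.37% of all genes tested, and all 7 were called for genotype, as were 5.78% of all genes (3.57% higher and 2.21% lower), but nothing follows from either count because the same contrast picked the members. No threshold was attached to the choice. Of 376 genes off chromosome 1 that were called for genotype, 44 changed at least as much as Angel1, 15 at least as much as Pak1 and 2 at least as much as Dkk3, Dkk3 itself included. In bulk muscle, fewer cells of a type and less RNA per cell cannot be told apart.

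Levels were compared between members per kilobase of annotated exon, which overstates the length of genes with many transcripts. In wild-type mice the mean normalized reads per kilobase were 181 for Zmynd17, 22.9 for Dyrk1b, 13.3 for Wnk2, 11.5 for Pak1, 9.29 for Dkk3, 6.54 for Ddah1 and 2.065 for Angel1. In myostatin-reduced mice Zmynd17 remained the highest at 65.5, followed by Dyrk1b at 36.1, Wnk2 at 26.1 and Pak1 at 19.7. Angel1 at 3.14 was then above Dkk3 at 1.86 and Ddah1 at 1.755.

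The order of the 4 group means also differed between members. Dkk3, Ddah1 and Zmynd17 decreased in the order IW, AW, IM and AM, which is the order of Mstn, with means of 116, 93.7, 19.0 and 12.8 normalized reads. Pak1 increased in that same order, from 33.5 ± 4.33 in IW through 52.7 ± 4.58 in AW and 70.1 ± 2.78 in IM to 77.8 ± 12.9 in AM mice (SD, n = 3). Wnk2, Dyrk1b and Angel1 increased in the order AW, IW, AM and IM. For example, the means of Wnk2 were 96.7 ± 11.9, 129.6 ± 27.2, 208 ± 29.7 and 235 ± 47.7 normalized reads in that order. Neighbours of the same genotype in these orders did not differ past the threshold of the limma test in any member, as described next.

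The comparison of active with inactive mice was not used to pick the members and was therefore tested. Both comparisons share the same estimate of spread in each gene, so genes picked for a clear genotype difference can have a small spread. The activity and interaction tests of the members, and their intervals, are therefore not independent of the choice. The activity test asked whether genes that differed with myostatin also differed between active and inactive mice. Only the active mice were stated to live alone, so wheel running and single housing cannot be told apart. In the limma fit 2 of the 7 members were called, Zmynd17 lower and Pak1 higher with activity. The share among all genes was 14.5%, with 7.99% higher and 6.51% lower. Active means were below inactive means in 6 of the 7 members, Pak1 being the exception. The median log2 change of all genes tested was also below 0, at -0.022. An unadjusted limma p-value under 0.05 was found in 5 members and in 30.2% of all genes.

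Zmynd17 was lower in active mice, with a mean of 425 ± 81.5 normalized reads in IW against 238 ± 47.3 in AW mice (SD, n = 3). In myostatin-reduced mice the means were 138 ± 23.6 without and 102 ± 23.9 with activity. The AW mean was 55.9% of the IW mean and the AM mean was 74.1% of the IM mean. Its log2 change with activity was -0.64 (SE 0.134, limma adjusted p = 0.00949). The call was kept in each of the 12 fits that left out a mouse, with changes from -0.73 to -0.57. When the slow-fibre score was added to the model, the change was -0.51 and was no longer called (limma adjusted p = 0.0633).

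Pak1 was higher in active mice, the AW mean being 157% of the IW mean and the AM mean 111% of the IM mean. Its log2 change with activity was 0.39 (SE 0.0855, limma adjusted p = 0.0113). The call was kept in each of the 12 fits that left out a mouse, with changes from 0.34 to 0.46, and with the slow-fibre covariate, at 0.46 (limma adjusted p = 0.018). Thus Pak1 was higher, and Zmynd17 lower, both in active mice and in myostatin-reduced mice.

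The remaining members did not pass the test for activity. Dkk3 changed by -0.34 (95% interval -0.62 to -0.05, limma adjusted p = 0.107), Ddah1 by -0.36 (-0.69 to -0.03, adjusted p = 0.132) and Wnk2 by -0.29 (-0.54 to -0.03, adjusted p = 0.124). Ddah1 was called without AW mouse 1, at -0.46 (limma adjusted p = 0.0464), and without AM mouse 2, at -0.49 (limma adjusted p = 0.0348). The changes of Dyrk1b, -0.13 (-0.29 to 0.03), and Angel1, -0.14 (-0.28 to 0.002), were smaller than those of the other members. Intervals of this width leave room for a change of the size seen in Pak1 for Dkk3, Ddah1 and Wnk2, in the downward direction. Those of Dyrk1b and Angel1 do not reach that size.

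Some markers of endothelial cells and of muscle fibers moved with activity in the same mice. Of 7 endothelial markers, 6 were called higher in active mice, and their summed level was 269 to 343 in inactive and 272 to 459 in active wild-type mice, and 235 to 242 in inactive and 306 to 514 in active myostatin-reduced mice, with all 7 in the table. The log2 changes of all 11 slow-fibre markers with activity were above 0, at 1.04 to 2.68 with a median of 1.80, against a median of 0.49 for the endothelial markers, but only 1 of the 11 was called for activity. Also called were 4 of 10 skeletal muscle markers. Myh1 (log2 change 1.51) and Myh2 (2.04) were higher, and Myh4 (-0.57) and Atp2a1 (-0.30) were lower in active mice. The slow-fibre score does not include these genes. No tested marker was called of fibroblasts, adipocytes, leukocytes, satellite cells, smooth muscle or Schwann cells. The part of the endothelial and skeletal muscle markers in the activity changes of Zmynd17 and Pak1 was not tested.

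**Figure D2:**
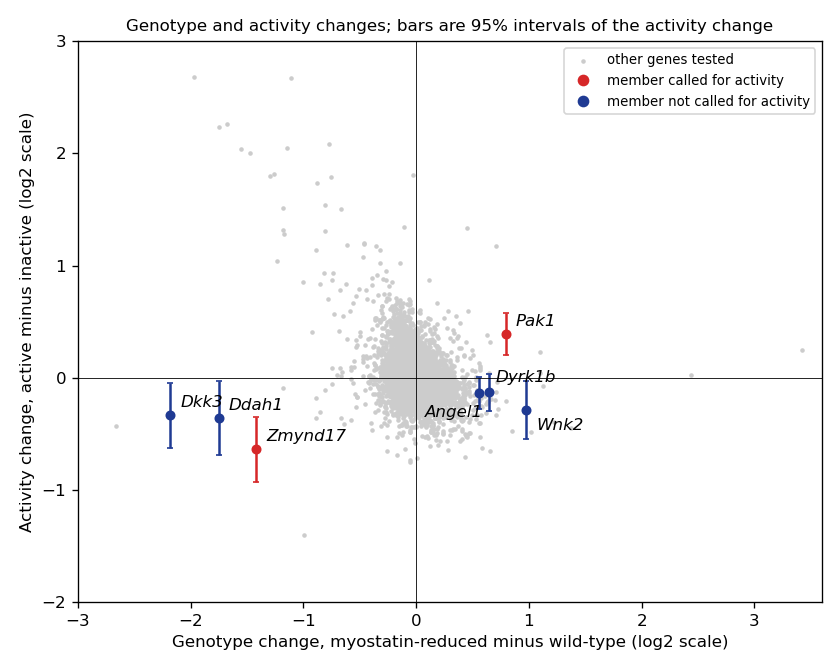
Log2 change with activity (vertical axis, active minus inactive) against log2 change with genotype (horizontal axis, myostatin-reduced minus wild-type) for the 7 members and, in grey, the other genes tested. Red members were called for activity, blue members were not, and bars are 95% intervals of the activity change. Zmynd17 lies lowest among the members at -0.64 and Pak1 is the only member above 0, at 0.39. The horizontal position of the members was used to pick them.

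The activity change was then examined within each genotype. In wild-type mice 0 of 7 members were called in limma, against 0.0276% of all genes, with 4 members at an unadjusted p-value under 0.05 (14.7% of all genes). The log2 changes of these were 0.64 for Pak1 (adjusted p = 0.0611), -0.84 for Zmynd17 (adjusted p = 0.0848), -0.56 for Ddah1 (adjusted p = 0.239) and -0.41 for Wnk2 (adjusted p = 0.278). Without AW mouse 1, Pak1 was called at 0.68 (limma adjusted p = 0.0304) and Zmynd17 at -0.99 (limma adjusted p = 0.0292). Active and inactive wild-type mice did not overlap in 3 members, Ddah1, Zmynd17 and Pak1, against 17.5% of all genes.

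In myostatin-reduced mice 0 of 7 members were called in limma, against 7.84% of all genes, with 2 members at an unadjusted p-value under 0.05 (26.2% of all genes). These were Dkk3, with a log2 change of -0.48 (adjusted p = 0.132), and Zmynd17, with -0.44 (adjusted p = 0.165). Pak1 changed by 0.14 (95% interval -0.13 to 0.40) and Ddah1 by -0.16 (-0.62 to 0.31). Active and inactive myostatin-reduced mice did not overlap in 1 member, Angel1, against 29.8% of all genes.

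The activity-by-genotype interaction, the difference between the activity change of myostatin-reduced and of wild-type mice, was called in 0 of 7 members in limma and in 0% of all genes. Of the members, 1 had an unadjusted p-value under 0.05, against 4.1% of all genes. This was Pak1, with an interaction of -0.51 on the log2 scale (95% interval -0.88 to -0.13, unadjusted p = 0.0115, limma adjusted p = 0.89). Its activity change was thus 0.64 in wild-type and 0.14 in myostatin-reduced mice, and the difference did not pass the test over all genes. Ddah1 had an interaction of 0.41 (-0.25 to 1.07) and Zmynd17 of 0.40 (-0.18 to 0.98). Dkk3 had -0.28 (-0.85 to 0.29) and Wnk2 0.24 (-0.28 to 0.75). Dyrk1b, at -0.04 (-0.36 to 0.29), and Angel1, at -0.05 (-0.33 to 0.23), had the narrowest intervals, which still allow an interaction of 0.2 in either direction.

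**Figure D3:**
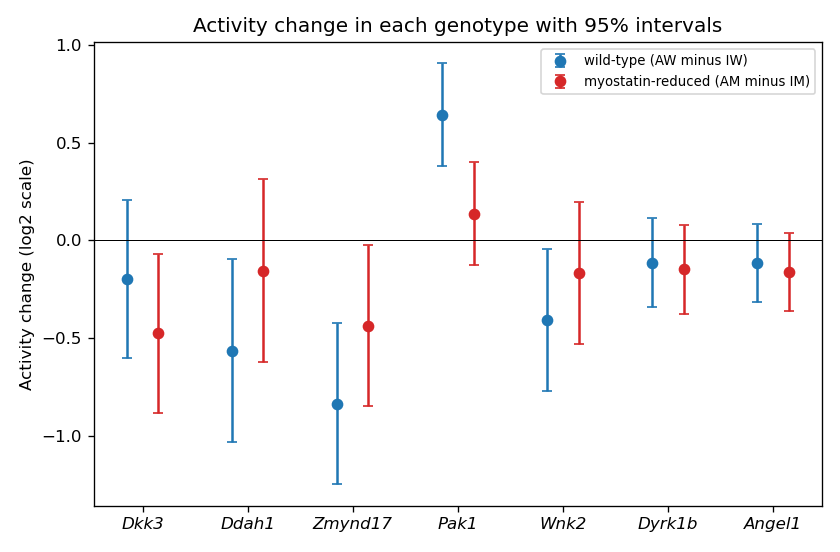
Log2 change with activity in wild-type mice (blue, AW minus IW) and in myostatin-reduced mice (red, AM minus IM) for each member, with 95% intervals from the limma fit to all 12 mice. Pak1 is at 0.64 and 0.14, and its intervals overlap little, whereas both values of Dyrk1b and of Angel1 lie between -0.16 and -0.11.

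Genes that neighbour the members were examined, since these were not picked on their values. Within 500 kb of the members lay 48 tested genes, of which 2 (4.17%) were called for genotype in limma, against 5.78% of all genes tested. The median log2 change of the neighbours was 0.03 and that of all genes was -0.005. No tested neighbour of Dkk3, Zmynd17, Pak1, Wnk2 or Dyrk1b was called (0 of 37 genes). Before adjustment the limma p-value was under 0.05 in 15 of the 48 neighbours and in 10 of these 37, against 22.5% of all genes. The nearest tested neighbours of Zmynd17 were Anxa7, 2.7 kb away with a log2 change of -0.07 (limma adjusted p = 0.634), and Ppp3cb, a catalytic subunit of calcineurin, 2.5 kb away with -0.08 (limma adjusted p = 0.486). The nearest to Dkk3 was Usp47, 4.6 kb away with -0.08 (limma adjusted p = 0.512). No other annotated gene shared exonic bases with a member.

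Cyr61, a secreted matricellular protein encoded 108.7 kb upstream of Ddah1 on chromosome 3, was lower in myostatin-reduced mice. Wild-type mice had 33.6, 19.0 and 17.6 normalized reads when inactive and 17.8, 15.5 and 18.2 when active. Myostatin-reduced mice had 10.5, 8.64 and 17.0 when inactive and 6.38, 11.6 and 9.33 when active, so that IM mouse 3 was above the lowest wild-type mouse. Cyr61 changed by -0.89 on the log2 scale (SE 0.189, limma adjusted p = 0.0189), and by -1.01 to -0.74 when a mouse was left out. The call was lost without IM mouse 1 and without AW mouse 3. The other tested genes within 500 kb of Ddah1, Col24a1, Znhit6, Bcl10 and 2410004B18Rik, had log2 changes from -0.19 to 0.43 and were not called, although with Cyr61 4 of the 5 had an unadjusted limma p-value under 0.05. Near Angel1, 6430527G18Rik changed by 0.28 (SE 0.0708, limma adjusted p = 0.0415), a call that was kept in 1 of the 12 fits that left out a mouse, the fit without AW mouse 1, with changes from 0.22 to 0.31.

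**Figure D4:**
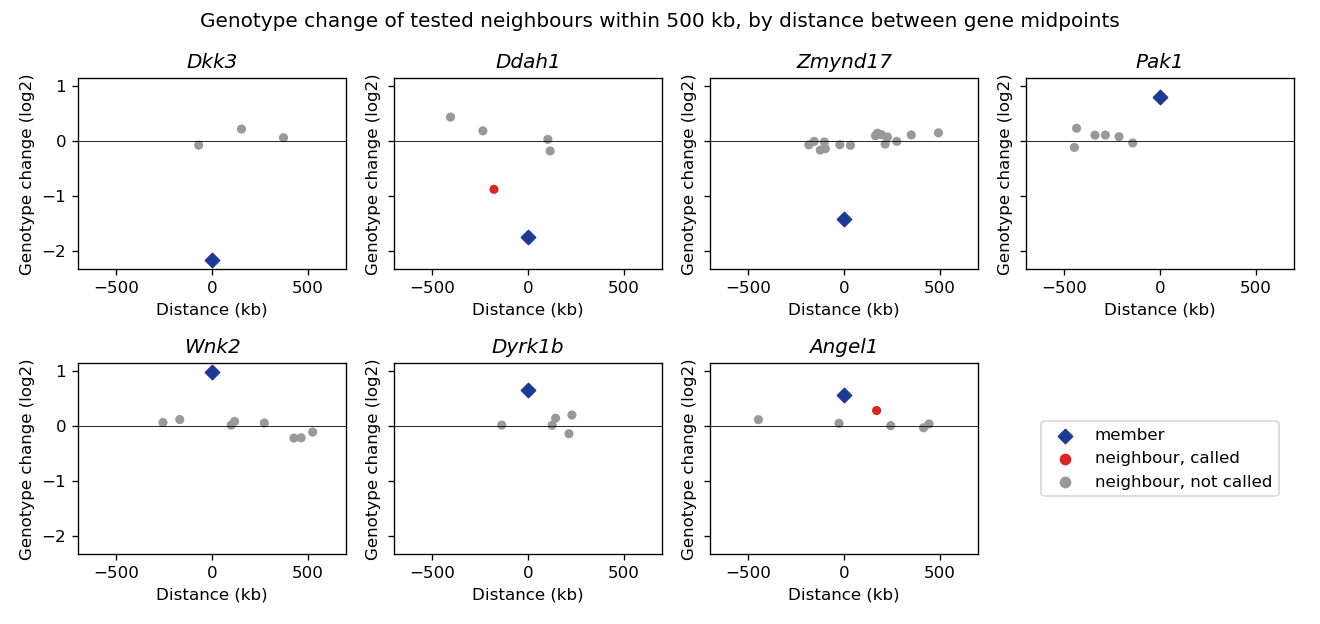
Log2 change with genotype of tested genes within 500 kb of each member (circles) and of the member itself (diamond), by the distance in kb between gene midpoints. Red circles were called for genotype and grey circles were not. Cyr61 near Ddah1, at -0.89, is the neighbour farthest from 0.

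Genes related to each member by pathway or family were examined as 7 lists written by hand. Of 121 tested genes, 8 (6.61%) were called for genotype in limma, 4 higher and 4 lower, against 5.78% of all genes, and the median log2 change was 0.004 against -0.005 for all genes. For activity 13 (10.7%) were called, 4 higher and 9 lower, against 14.5% of all genes. When a mouse was left out, the count for genotype was between 2 and 13.

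The list around Ddah1 covered methylarginine and nitric oxide metabolism, and 4 of 15 tested genes were called for genotype, 3 higher and 1 lower, with a median log2 change of 0.04. Prmt1, the main enzyme that forms asymmetric dimethylarginine in proteins, had means of 61.3 ± 3.56 and 67.3 ± 1.18 normalized reads in inactive and active wild-type mice and of 75.1 ± 0.692 and 73.3 ± 3.36 in the myostatin-reduced ones (SD, n = 3). It changed by 0.21 with genotype (log2, SE 0.0439, limma adjusted p = 0.019). That call was lost without IW mouse 1 and without IM mouse 1, the change being 0.18 to 0.23 over all fits that left out a mouse. Carm1, another arginine methyltransferase, changed by 0.28 (limma adjusted p = 0.0332) and Slc7a2, a transporter of cationic amino acids such as arginine, by 0.39 (limma adjusted p = 0.025). Nos1, the nitric oxide synthase of muscle fibers, changed by -0.25 (limma adjusted p = 0.0383).

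These calls were less stable than that of Prmt1. Slc7a2 was called in 8 of the 12 fits that left out a mouse, and not without IM mouse 1, IM mouse 2, AW mouse 2 or AW mouse 3 (0.33 to 0.45 over all 12). Nos1 was called in 4 (-0.29 to -0.22) and Carm1 in 4 (0.24 to 0.33), both losing the call without IW mouse 1, IW mouse 2, IM mouse 2, IM mouse 3, AW mouse 2, AW mouse 3, AM mouse 1 or AM mouse 3. With the slow-fibre covariate the changes were -0.23 for Nos1 (limma adjusted p = 0.0825) and 0.23 for Carm1 (limma adjusted p = 0.0774), close to those without it but not called. Ddah2, the other enzyme of the Ddah family, was between 3.19 and 5.28 normalized reads in the 12 mice and was below the minimum for testing.

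The list around Dyrk1b held related kinases and their known substrates, and 2 of 18 tested genes were called for genotype, both lower. Rcan1, an inhibitor of calcineurin, had means of 96.3 ± 8.01 and 95.2 ± 4.01 normalized reads in inactive and active wild-type mice, against 60.6 ± 4.55 and 69.7 ± 7.72 in the myostatin-reduced ones (SD, n = 3). Rcan1 changed by -0.55 on the log2 scale (SE 0.0647, limma adjusted p = 0.000762), and the call was kept in all 12 fits that left out a mouse. Cdkn1b, the cell cycle inhibitor p27, changed by -0.30 (SE 0.0672, limma adjusted p = 0.023), a call lost without IM mouse 1 and without AW mouse 3 (-0.33 to -0.25 over the 12 fits). The kinases closest to Dyrk1b were not called, with a log2 change of -0.08 for Dyrk1a (95% interval -0.19 to 0.04) and of 0.06 for Dyrk2 (-0.22 to 0.35).

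In the list around Wnk2, 1 of 11 tested genes was called for genotype. This was Cab39, a scaffold protein that activates several kinases, with a log2 change of -0.20 (SE 0.0429, limma adjusted p = 0.0195), lost without IM mouse 1, IM mouse 3 or AW mouse 3 (-0.23 to -0.18 over the 12 fits). Wnk1, the abundant kinase of that family at a mean of 666 normalized reads, changed by 0.13 (95% interval -0.04 to 0.29). In the list around Angel1, 1 of 21 tested genes was called. This was Eif4ebp2, a repressor of translation that binds eIF4E, with 0.31 (SE 0.0742, limma adjusted p = 0.0332), called in 4 of the 12 fits that left out a mouse (0.27 to 0.36), those without IW mouse 2, IW mouse 3, AW mouse 1 or AM mouse 2. Angel2 changed by 0.03 (95% interval -0.12 to 0.19).

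No gene was called for genotype in the other 3 lists. Before adjustment the limma p-value was under 0.05 in 4, 6 and 5 of their genes, against 22.5% of all genes tested. In the Wnt list around Dkk3, 0 of 15 tested genes were called, and the genes with the highest means were Ctnnb1, which encodes beta-catenin, and Dvl1. In the list of MYND-domain and cytochrome oxidase assembly genes around Zmynd17, 0 of 19 were called, and the highest means belonged to the muscle methyltransferase Smyd1 and to Smyd2. In the Rac, Cdc42 and PAK list around Pak1, 0 of 22 were called, and the highest means belonged to the muscle cofilin Cfl2 and to Rhoq. Pak2 changed by 0.10 (95% interval -0.04 to 0.24).

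With activity, genes called in all 12 fits that left out a mouse were found in 3 lists. Smyd2, in the Zmynd17 list, changed by -0.53 (SE 0.0911, limma adjusted p = 0.00337). Fzd7, a Wnt receptor in the Dkk3 list, changed by -0.36 (SE 0.0791, limma adjusted p = 0.0113), and Tiam1, an activator of Rac in the Pak1 list, by -0.73 (SE 0.173, limma adjusted p = 0.0158). With the slow-fibre covariate Fzd7, at -0.26 (limma adjusted p = 0.0752), and Tiam1, at -0.43 (limma adjusted p = 0.0809), were no longer called. Fzd7 and Tiam1 were outside the naming rule and were chosen after their values were seen.

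**Figure D5:**
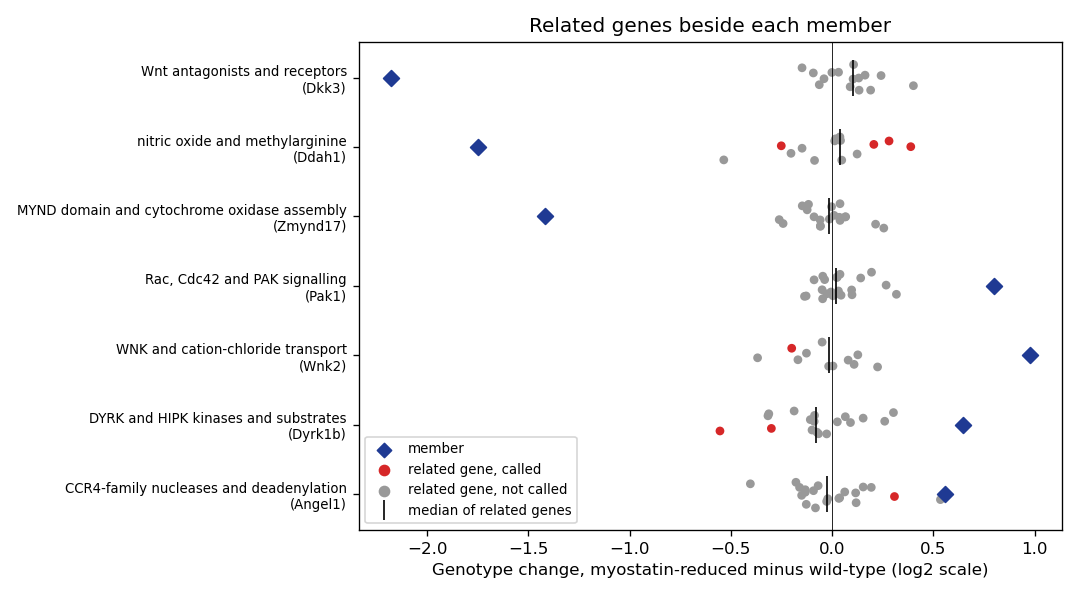
Log2 change with genotype (horizontal axis) of each member (diamond) and of the tested genes in the list written for it (circles, red where called for genotype), with the list median as a vertical bar and points spread vertically to separate them. The list medians lie between -0.08 and 0.10, while the members, picked for their difference, lie from -2.18 to 0.98.

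Genes whose pattern over the 12 mice was most like that of a member were sought in the 2552 genes whose mean was 50 or more, members left out, by Pearson r of the log2 values, as a description. The gene most like Dkk3 was Mstn (r = 0.974), followed by Ank (r = 0.938). Ank was also the most like Ddah1 (r = 0.957), with Foxo4 next (r = 0.944), although the group means of Ank, a pyrophosphate transporter, went only from 345 normalized reads in IW to 306 in AM mice. The gene most like Zmynd17 was Uaca (r = 0.975). The IW, AW, IM and AM means of Uaca were 455, 403, 358 and 323 normalized reads, in the order found for Zmynd17.

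For the higher genes, Prmt1 (r = 0.942) and Smpx (r = 0.908) were the most like Pak1. Vars (r = 0.965) and Maz (r = 0.961) were the most like Wnk2. Pabpc1, a poly(A)-binding protein (r = 0.967), and Afap1l1 (r = 0.95) were the most like Dyrk1b. Afap1l1 was also among the 2 genes most like Angel1 (r = 0.905). These values share the same libraries and include the genotype difference that picked the members.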

How the data were processed

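Polyadenylated RNA of triceps brachii from 12 mice was measured. The authors aligned 65-base single-end reads to mm9 with CASAVA (version not stated) and added up reads over the RefSeq exons of each gene. The deposited values are a signal, namely read counts that the authors scaled to equal trimmed means. Strand use was not stated. Reads per mouse were estimated from the smallest spacing of low values. Of values under 5, 90.0% to 92.0% were whole multiples of this spacing (within 0.0051 normalized reads plus 5e-05 for each read). Whole reads were therefore not recovered for all low values, larger values were not checked, and no count model was run. Intervals are for differences between group means, based on the spread between mice as moderated over genes by limma. SDs describe the mice of a group.

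Groups and replicate numbers came from sample titles. No pair of columns was identical. Contrasts were fitted in R 4.3.3 with limma 3.58.1, using log2(value + 1), which understates changes of low genes, in genes with a mean of at least 10, with a mean for each group, eBayes with trend, two-sided p-values and Benjamini-Hochberg adjustment over 7247 genes. The script was tested on simulated data. Genes with an adjusted p below 0.05 are described as called. Positions came from GENCODE on NCBIM37 (mm9), with 7208 tested genes matched by symbol. Named genes were the members, Mstn, called genes of each list (otherwise the 2 with the highest means), called or nearest neighbours, and the 2 genes most like each member, of which some are not reported here. Family members outside this rule were named for their relation to a member. The members and lists were chosen with earlier results of these data known. Same-number IM and AM mice deviated together (r = 0.171 to 0.322), which other group pairs did not all do. Mice were not stated to share a litter or cage across groups. Alternatives were other pseudocounts, filters, a median-ratio rescaling, sample weights, a replicate block, a slow-fibre covariate and leaving out each mouse.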

Additional observations from a re-analysis of the deposited data

How the results depend on the processing

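The number of members called for activity was 2, and it was 3 with sample quality weights, 1 with the slow-fibre score as a covariate and 2 to 3 when a mouse was left out. Calls within a genotype numbered 0, but 1 in the genes whose mean was 50 or more, 2 with sample weights, 1 with the slow-fibre covariate and 0 to 2 without a mouse (2 without AW mouse 1). Interaction calls among the members were 0 in every setting tried, and over all genes 1 was called without IW mouse 3. The neighbours called for genotype, 2 in number, became 0 in the genes whose mean was 50 or more, since neither Cyr61 nor 6430527G18Rik is among them, 1 with the slow-fibre covariate and 0 to 2 without a mouse. With the replicate block 1 neighbour was called (6430527G18Rik had the same log2 change of 0.28, with an adjusted p of 0.0533 in limma), and the block changed no call of a member. Calls in the related-gene lists, 8 in number, were 14 with sample weights and 2 to 13 without a mouse, with 4 without IW mouse 1, 3 without IM mouse 1, 4 without IM mouse 2, 5 without AW mouse 2, 2 without AW mouse 3, 5 without AM mouse 1 and 13 without AM mouse 2. Changes of sign were seen only in values that were not called. The interaction of Dyrk1b was 0.017 with sample weights, 0.011 with the slow-fibre covariate and -0.134 to 0.06 without a mouse. The activity change in myostatin-reduced mice was 0.018 for Wnk2 with the covariate and -0.411 to 0.019 for Ddah1 without a mouse. The genotype change with the covariate was -0.02 for Angel2 and -0.067 for Dyrk2, and without a mouse it was -0.02 to 0.065 and -0.018 to 0.174. The causes were not tested. A minimum mean of 50 excludes Dkk3, Ddah1 and Angel1, which have no value there. The genotype changes of the members, given without a test, kept their direction in every setting. With a pseudocount of 5 they were -1.69 for Dkk3, -1.36 for Ddah1 and 0.42 for Angel1, and the median of the sizes of all members was 0.873 to 1.053 over the settings.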
